A study of Oryza sativa with 18 samples.

Results

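The introgression line H471 was compared with its recurrent parent HHZ in leaves taken after 1 day of drought. HHZ (Huang-Hua-Zhan) is a drought-sensitive indica rice, and H471 is a backcross line that carries 26 listed chromosome segments of the drought-tolerant donor P28 (PSBRC28) in the HHZ background. The members are the 18065 genes, of 39049 in the table, with a value of at least 1 FPKM (fragments mapped to a gene, scaled for its length and for the size of the library) in H471 or HHZ at that time. All plants were pot-grown and at tillering, and soil water was 15% after 1 day and 10% after 3 days of drought. Each genotype was also sampled under well-watered control conditions. Each genotype and condition had 2 libraries, made from RNA pooled over plants, but the table holds 1 FPKM column for both, which is the authors' pooled value. The 1-day difference therefore has no replicate check, no error and no p-value. H471 is a single line, so an effect of its donor segments and of anything else that sets it apart from HHZ cannot be told apart.

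Backcross introgression lines carry short donor segments in an otherwise recurrent genome. A transcript can differ in such a line because the gene itself lies in a donor segment, or because a gene elsewhere acts on it. In drying rice leaves abscisic acid (ABA) is made, PYL receptors that bind it inhibit clade A protein phosphatases 2C, and SnRK2 kinases are released to switch on genes for dehydrins and other protective proteins. Receptor-like kinases and NB-ARC proteins sense signals and pathogens at and inside the cell, and their genes lie in clusters that vary widely between rice varieties.

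Both 1-day columns carried leaf RNA. RBCS (LOC_Os12g17600), the small subunit of Rubisco, stood at 3268 FPKM in H471 and 3505 FPKM in HHZ. Of the root and meristem markers, NRT2.1 and Lsi2 were listed at 0 in both columns, OSH1 did not pass 0.0636 FPKM, and Lsi1 (LOC_Os02g51110), a silicon channel first described in roots, was at 8.48 FPKM in H471 and 10.7 FPKM in HHZ. The columns summed to 950436 FPKM in H471 and 939252 FPKM in HHZ, and their log2 values correlated across genes with r = 0.96. Genes are not independent replicates, and the depth of each library cannot be read from these values.

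A pair of columns needs a word before the results. Genes coding for seed storage proteins, which leaves are not known to make, were detected almost only in HHZ after 1 day. Separately, the H471 control column held middling values for many genes that were at or near 0 in both H471 drought columns. Both touch several of the results below, among them the counts of differences that returned in the control. Their part in the results was not tested.

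Most genes differed little between H471 and HHZ on the first day. The difference was taken as log2((H471 + 1)/(HHZ + 1)), which understates the change of low genes, and its median over the 18065 genes was -0.0049, with the quartiles at -0.13 and 0.14. An absolute difference of at least 1 was used as a rule of size. It was passed by 701 genes, 3.88% of all, of which 368 (2.04%) were higher and 333 (1.84%) lower in H471. At an absolute difference of at least 2 there were 104 higher and 113 lower genes. Just outside the rule lay LOC_Os05g24880 at 46.4 FPKM in H471 and 93.7 FPKM in HHZ, and just inside it LOC_Os04g05870 at 1.00 FPKM in H471 and listed at 0 in HHZ.

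**Figure D1:**
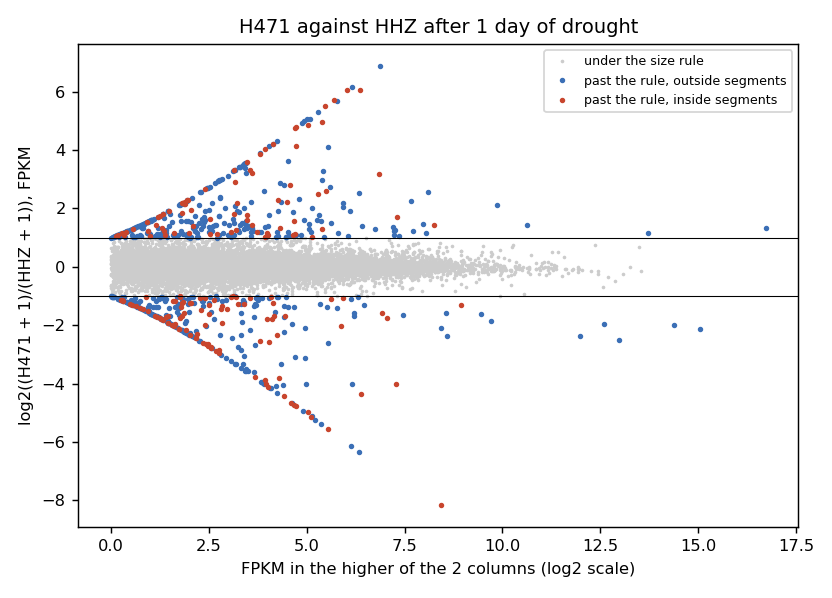
H471 against HHZ after 1 day (vertical axis, difference, on log2 of FPKM + 1) against the FPKM of the higher column (horizontal axis, log2 scale), 1 point per kept gene; the horizontal lines mark the rule of size. The points spread most at low FPKM, and the straight upper and lower edges are genes at or near 0 in the other genotype.

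Low genes made up much of the count. Of the 701 genes, 352 were under 5 FPKM in the higher column, where 7.55% of genes passed the rule. The share was 2.31% between 10 and 50 FPKM and 2.52% at 100 FPKM or more. Only 48.5% of the genes past the rule carried a description by their best Arabidopsis match, against 80.7% of all kept genes.

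The well-watered and 3-day columns are other plants of the same 2 genotypes, and they show which 1-day differences returned. Of the 368 genes higher in H471 after 1 day, 123 (33.4%) were also higher past the rule after 3 days, and 71 (19.3%) under control conditions. Over all kept genes the same calls were made for 1.72% after 3 days and 0.93% in the control. Of the 333 genes lower in H471, 127 (38.1%) were lower again after 3 days and 45 (13.5%) in the control, against 1.41% and 0.886% of all kept genes. The opposite call after 3 days was made for 22 of the higher and 19 of the lower genes, and in the control for 21 and 20. In neither other condition did the difference pass the rule in the same direction for 222 of the higher and 178 of the lower genes. The control counts rest on the H471 column with middling values. The 178 lower genes include seed storage genes, such as LOC_Os07g10580, detected almost only in HHZ after 1 day. Among genes of at least 10 FPKM, 57 of 128 higher and 51 of 107 lower genes returned after 3 days.

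Genes inside the donor segments differed more often than the rest. The segments hold 1808 kept genes by locus number, and 175 of them (9.68%) passed the rule, 78 higher and 97 lower in H471. Outside them 526 of 16257 genes (3.24%) passed, 290 higher and 236 lower. Most genes past the rule, 526 of 701, therefore lay outside the listed segments, while the rate inside was the greater. Neighbouring genes share a segment and are not independent, so no test is given. Genes inside also returned more often: 46 of 78 higher and 51 of 97 lower genes inside the segments passed again after 3 days, against 77 of 290 and 76 of 236 outside.

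**Figure D2:**
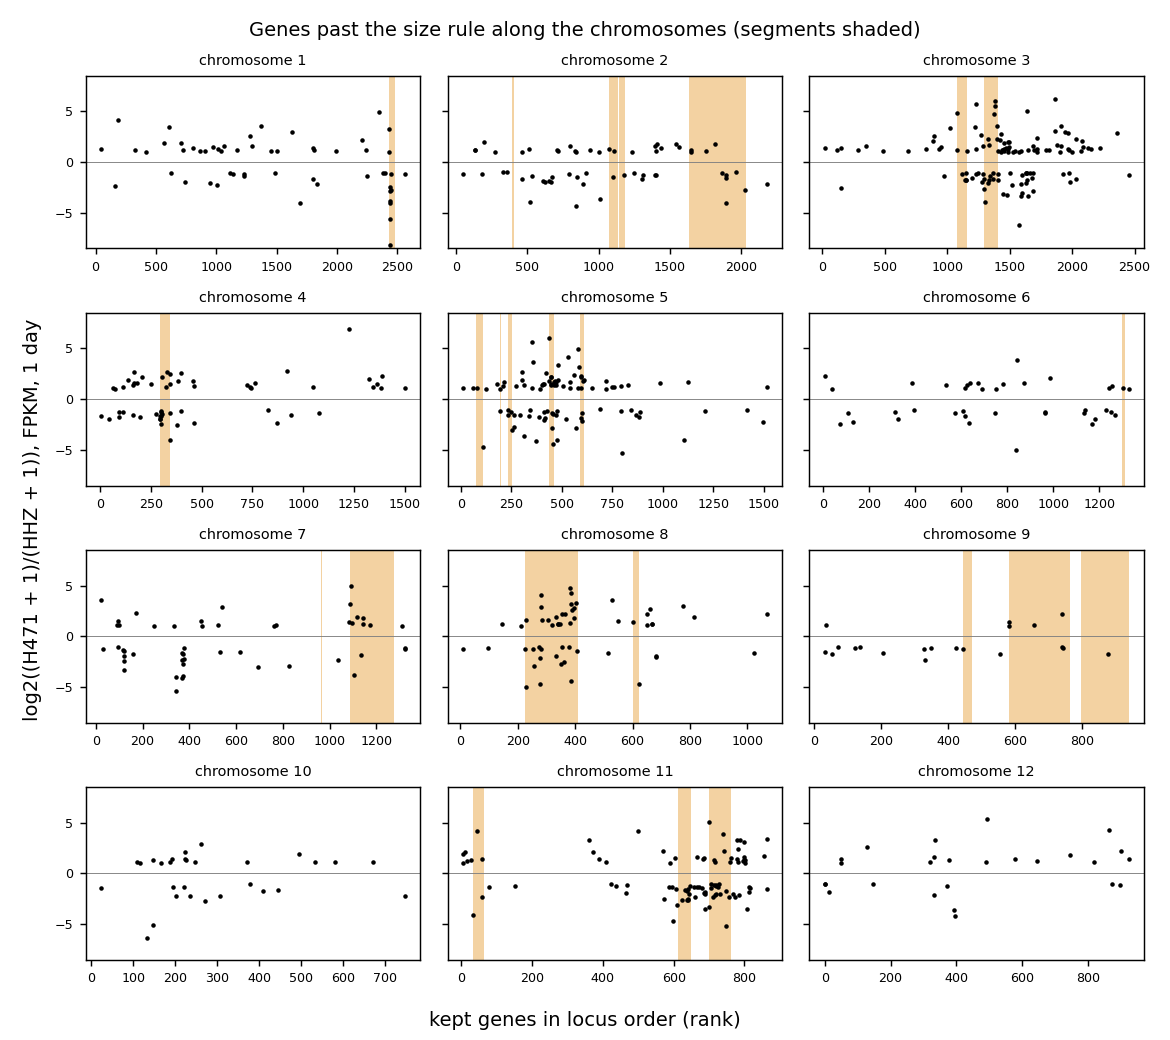
The genes past the rule after 1 day along the 12 chromosomes, with kept genes in locus order on the horizontal axis, the log2 difference of H471 and HHZ on the vertical axis and the listed donor segments shaded. Points gather in and around the segments of chromosomes 3, 5, 8 and 11, and the segments of chromosomes 2 and 9 hold few.

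The segments were unlike one another. Bin8.1 on chromosome 8 held the most genes past the rule, 35 of 185 (20 higher and 15 lower in H471), followed by Bin11.3 with 19 of 60 and Bin3.3 with 17 of 112. All 9 genes past the rule in Bin11.2 were lower in H471, of 35 kept. By contrast the largest segment, Bin2.4, had 10 of 397 genes past the rule (2.52%), Bin9.2 had 6 of 184 and Bin9.3 had 1 of 144, below the 3.88% of all kept genes. Without Bin8.1 the share inside the segments was 8.63%.

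**Figure D3:**
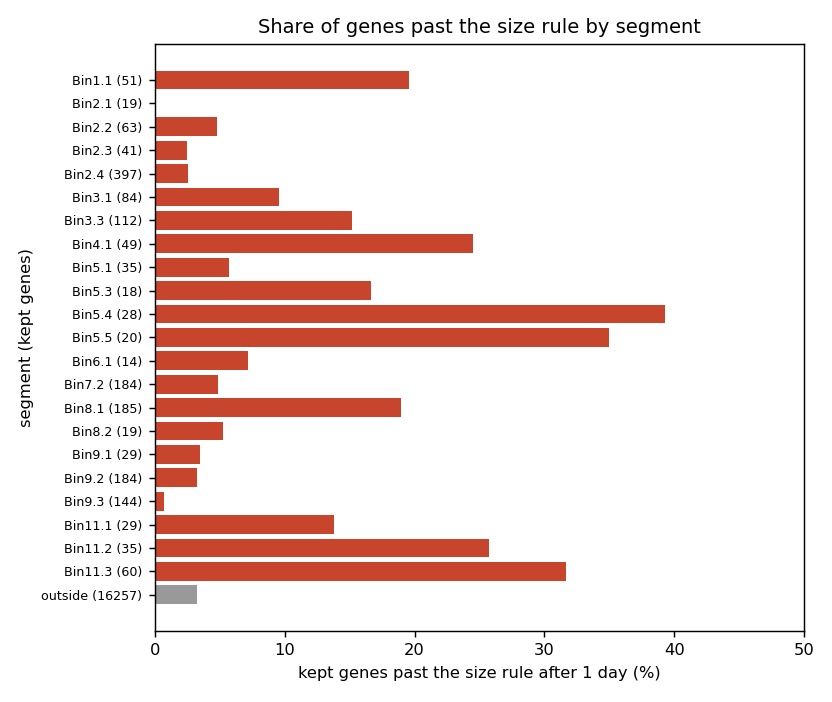
Share of kept genes past the rule after 1 day (horizontal axis, percent) in each donor segment with at least 10 kept genes, with the number of kept genes in brackets and all genes outside the segments in grey. Bin5.4 (39.3%), Bin5.5 (35.0%) and Bin11.3 (31.7%) have the longest bars, and genes outside reach 3.24%.

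Dense stretches also lay next to the listed segments. In windows of 50 kept genes the median was 1 gene past the rule, and 10 of 362 windows held at least 10. The densest, on chromosome 11, ran over LOC_Os11g37759 to LOC_Os11g39780 with 18 genes past the rule, almost wholly inside Bin11.3. The window before it, LOC_Os11g35310 to LOC_Os11g37740, held 13 although none of its genes lies in a listed segment. Chromosome 11 as a whole had the highest share, 93 of 895 kept genes (10.4%), and chromosome 9 the lowest, 20 of 989 (2.02%).

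Where P28 also differed from HHZ, the donor gives a second view of the same genes. P28 shares the HHZ 1-day column, so only its control and 3-day columns were set beside the H471 calls. Of the 78 genes higher in H471 inside the segments, 27 were also past the rule, higher in P28 against HHZ, in the control and 21 after 3 days, where all kept genes gave 2.31% and 2.03%. Of the 97 lower ones, 42 in the control and 34 after 3 days were past the rule in the lower direction in P28, against 2.77% and 2.83% of all kept genes. Outside the segments the counts past the rule were 36 and 27 of 290 higher genes, and 44 and 42 of 236 lower genes.

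Some genes were present in one genotype and at or near 0 in the other. After 1 day 54 genes had at least 5 FPKM in H471 and under 0.5 FPKM in HHZ, and 54 had the reverse. Both sets hold genes seen mainly in that 1 column, such as LOC_Os01g69890 in the first. The second includes seed storage genes, such as LOC_Os07g10580, that were also low in HHZ in the control and after 3 days. After 3 days 31 of the first and 29 of the second kept that state, with at least 1 FPKM in the one and under 0.5 FPKM in the other. P28 was under 0.5 FPKM on both drought days for 19 of those 31 genes, which were thus found in H471 and in neither parent under drought. For 14 of those 29 genes P28 had at least 1 FPKM on both days, so that both parents had the transcript and H471 did not.

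Among the genes found in H471 alone, LOC_Os11g37759, a CC-NBS-LRR resistance protein by its match, had 33.7 FPKM in H471 and 0.0473 FPKM in HHZ after 1 day. Its P28 value was 0 at that time, and after 3 days it had 32.6 FPKM in H471 and 0.0493 FPKM in HHZ. LOC_Os03g37864, with no description, had 65.7 FPKM in H471 and was listed at 0 in P28 and HHZ. These genes stood clear of both parents on both drought days. LOC_Os05g10310, matched to an acid phosphatase, had 54.4 FPKM in H471 and 0.0902 FPKM in HHZ after 1 day, but 5.90 FPKM in H471 after 3 days and 0 in the H471 control. LOC_Os05g25400, matched to a ribonuclease III, had 29.2 FPKM in H471 and was listed at 0 in HHZ, with 4.88 FPKM in H471 after 3 days. For LOC_Os01g69890, of unknown function, the 30.6 FPKM of H471 after 1 day was the only value above 0 in the 9 columns.

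The genes lost from H471 included some that HHZ expressed strongly. LOC_Os01g71630 in Bin1.1, with no description, had 0.209 FPKM in H471 and 343 FPKM in HHZ after 1 day, and 0.554 FPKM in H471 and 250.2 FPKM in HHZ after 3 days. P28 had 0.257 FPKM after 1 day. LOC_Os10g11590 codes for a subunit of replication protein A, which binds single-stranded DNA, and had 0.0337 FPKM in H471 and 35.0 FPKM in HHZ, with 0.0316 FPKM in P28. In both genes H471 was as low as the donor, although the second lies outside the listed segments. LOC_Os08g07774 in Bin8.1, matched to the receptor kinase SERK2, had 0.0571 FPKM in H471 and 32.5 FPKM in HHZ. LOC_Os03g45220, chosen after its values were seen, was listed at 0 in H471 and had 76.8 FPKM in P28 and 69.7 FPKM in HHZ. After 3 days its values were 0.312 FPKM in H471, 82.2 FPKM in P28 and 86.4 FPKM in HHZ, so that H471 stood apart from both parents.

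The H471 control column did not follow this pattern. Of the 29 genes at or near 0 in H471 on both drought days, 28 had at least 1 FPKM in the H471 control, and in the 28 with at least 1 FPKM in the HHZ control the H471 value was a median 65.2% of the HHZ value. LOC_Os10g11590, for one, had 16.7 FPKM in the H471 control and 22.6 FPKM in the HHZ control, with 0 in the P28 control, and LOC_Os01g71630 had 139 FPKM in the H471 control and 236 FPKM in the HHZ control. For the 31 genes present in H471 on both drought days, the H471 control stood at a median 31.0% of the mean of its drought columns. What the control libraries held was not tested.

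**Figure D4:**
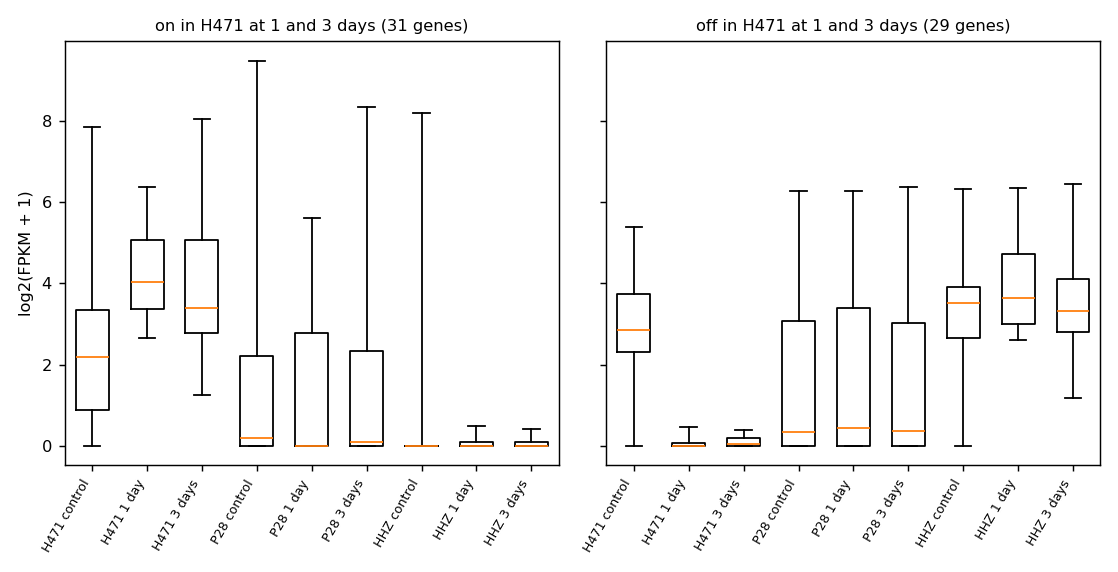
Levels, as log2(FPKM + 1), of the 31 genes present in H471 and at or near 0 in HHZ (left) and the 29 with the reverse (right) on both drought days, in the 9 columns; boxes show the quartiles with the median, and whiskers the lowest and highest gene. In the right panel the H471 control box lies close to that of HHZ, while both H471 drought boxes lie at or near 0.

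Receptor kinases were among the genes with large differences. The neighbouring genes LOC_Os07g43560 and LOC_Os07g43570 in Bin7.2 are matched to CRK10, a cysteine-rich receptor-like kinase of the plasma membrane. LOC_Os07g43560 had 115 FPKM in H471 and 11.9 FPKM in HHZ after 1 day, with 108 FPKM in P28, a difference of 3.17 on the log2 scale. LOC_Os07g43570 had 42.2 FPKM in H471 and 0.397 FPKM in HHZ, with 36.6 FPKM in P28. For both kinases H471 was close to the donor and far from HHZ. H471 was also above HHZ in the control and after 3 days, where LOC_Os07g43570 had 263 FPKM in H471 and 0.286 FPKM in HHZ. Another member, LOC_Os04g30040 in Bin4.1, went the other way with 0.405 FPKM in H471 and 3.50 FPKM in HHZ. These were the only 3 of 25 kept members past the rule, where 3.88% of all kept genes were.

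Adjacent leucine-rich repeat kinases in Bin8.1 went in opposite directions. LOC_Os08g14950 had 45.0 FPKM in H471 and 6.65 FPKM in HHZ, and LOC_Os08g14940 had 3.16 FPKM in H471 and 84.1 FPKM in HHZ. P28 was low for both, at 3.25 and 3.69 FPKM. The gain was thus seen in H471 alone, and the loss also in the donor. Near-identical neighbours can exchange reads in the counting, so the split between them is uncertain. Over the whole family 4 of 131 kept members were higher and 5 lower in H471 (6.87% in all, against 3.88% of all kept genes).

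Wall-associated kinases bind pectin of the cell wall. Of 39 kept members none was past the rule in the higher direction and 4 (10.3%) were lower in H471, all 4 in Bin4.1, where all kept genes gave 2.04% and 1.84%. The other 35 stayed within the rule. LOC_Os04g29770, matched to WAK3, had 0.0506 FPKM in H471 and 3.08 FPKM in HHZ, and was listed at 0 in P28. The median of the family was -0.09, against -0.0049 for all kept genes.

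NB-ARC proteins recognise pathogen effectors inside the cell. Of 197 kept members 4 were higher and 9 lower in H471 (6.60% in all, against 3.88% of all kept genes), and 8 of these 13 lay in donor segments, as did 175 of all 701 genes past the rule. LOC_Os11g39320 in Bin11.3 had 13.9 FPKM in H471 and 0.0214 FPKM in HHZ, with 2.82 FPKM in P28. LOC_Os05g15040 in Bin5.4 had 0.0593 FPKM in H471 and 6.71 FPKM in HHZ, with 12.3 FPKM in P28. LOC_Os11g37740, matched to ZAR1, is by its description outside this list and its counts. It had 0.147 FPKM in H471 and 10.4 FPKM in HHZ, and the member LOC_Os03g48320 had 0.534 FPKM in H471 and 9.99 FPKM in HHZ. P28 resembled HHZ in these last 2 genes, with 9.47 and 11.3 FPKM.

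Short lists of ABA genes held no gene past the rule. None of 7 dehydrin and LEA genes, 8 clade A phosphatases, 10 SnRK2 kinases or 8 genes of ABA synthesis and breakdown passed it, where 3.88% of all kept genes did, so that lists of this size would hold few such genes at that rate. ABA receptors are in none of these lists. Of the 45 kept genes described as LEA proteins or dehydrins 3 (6.67%) were lower in H471 and none higher, among them LOC_Os03g20680 with 1.40 FPKM in H471 and 5.13 FPKM in HHZ. RAB16A (LOC_Os11g26790), a dehydrin, had 1211 FPKM in H471 and 749 FPKM in HHZ after 1 day, from under 1 FPKM in both controls. LEA3 (LOC_Os05g46480) had 265 FPKM in H471 and 267 FPKM in HHZ. The strong drought genes were thus on in both genotypes, with a list median of 0.29 for the dehydrins and 0.19 for the phosphatases. NCED4 (LOC_Os07g05940), which cleaves carotenoids in ABA synthesis, had 91.4 FPKM in H471 and 76.3 FPKM in HHZ, and ABA8ox1 (LOC_Os02g47470), which breaks ABA down, had 27.4 FPKM in H471 and 41.1 FPKM in HHZ. With 1 column each, equal levels are not shown by this.

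Several other lists also held none. No member passed the rule among 12 clock genes, 56 heat shock proteins, 18 heat shock factors, 11 JAZ repressors of jasmonate signalling, 21 aquaporins, 20 expansins and xyloglucan enzymes, and 117 calcium sensors. The clock genes lay between -0.21 and 0.03 in the 1-day pair, a narrow range for genes that follow the hour of sampling. Between conditions their levels could differ widely. LHY (LOC_Os08g06110) had 353 FPKM in H471 and 389 FPKM in HHZ after 1 day. It had 2.08 FPKM in H471 and 1.49 FPKM in HHZ in the control, and 10.6 and 14.2 FPKM after 3 days. What set the conditions apart was not tested. Transcription factor families, set beside 2.04% higher and 1.84% lower of all kept genes, had these calls: 1 of 50 WRKY genes higher, 1 of 51 NAC genes lower, 1 of 82 MYB genes lower, 1 of 65 bHLH genes higher and 2 of 51 AP2 and ERF genes higher. The larger of the 2 AP2 and ERF calls, LOC_Os03g42280, is described as an AP2/B3-like factor, so its place in that family is uncertain. It had 5.65 FPKM in H471 and 0.716 FPKM in HHZ, with 0.175 FPKM in P28.

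Single genes linked to drought and ABA by their match or description did differ, and the following 4 were chosen after their values were seen. LOC_Os03g18850, whose best Arabidopsis match is the ABA receptor PYL2, had 61.1 FPKM in H471 and 13.9 FPKM in HHZ after 1 day. After 3 days it had 52.0 FPKM in H471 and 53.7 FPKM in HHZ. The match does not show that the rice gene codes for a receptor. LOC_Os05g12410 and LOC_Os05g12630 code for BURP-domain proteins, a family that includes the drought marker RD22 of Arabidopsis. LOC_Os05g12410 had 80.5 FPKM in H471 and 346 FPKM in HHZ after 1 day, and 3.29 FPKM in H471 and 98.1 FPKM in HHZ after 3 days. LOC_Os05g12630 had 232 FPKM in H471 and 840.3 FPKM in HHZ after 1 day, and 44.2 FPKM in H471 and 260.4 FPKM in HHZ after 3 days. P28 had 367 FPKM and 1031 FPKM of these 2 genes after 1 day, so H471 was below both parents. Under control conditions LOC_Os05g12410 had 11.6 FPKM in H471 and 10.5 FPKM in HHZ, and LOC_Os05g12630 had 5.69 FPKM in both. LOC_Os04g34600, annotated in the study's tables as an abscisic stress-ripening protein, had 72.9 FPKM in H471 and 382 FPKM in HHZ, and P28 was also low at 40.1 FPKM.

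Genes of defence and of the cell surface passed the rule in both directions. Of 49 kept osmotins and pathogenesis-related genes 5 were higher and 3 lower, with a list median of 0.33, where all kept genes gave 2.04% higher and 1.84% lower. LOC_Os12g43450, matched to osmotin, had 20.4 FPKM in H471 and 3.60 FPKM in HHZ, with 23.3 FPKM in P28. LOC_Os05g15770, a chitinase in Bin5.4, had 158 FPKM in H471 and 47.2 FPKM in HHZ, with 67.1 FPKM in P28. After 3 days the chitinase was at 292 FPKM in H471 and 234 FPKM in HHZ, a difference under the rule. A lower gene was LOC_Os11g37960 in Bin11.3, matched to PR4, with 1.95 FPKM in H471 and 7.01 FPKM in HHZ. Of 43 genes described as lipid-transfer proteins, 4 were higher and 2 lower (14.0% in all, against 3.88% of all kept genes). The 2 lower genes, LOC_Os01g58660 and LOC_Os03g25350, were listed at 0 in H471 and had 3.53 and 2.39 FPKM in HHZ. Their description also names seed storage 2S albumins, and both were detected in the HHZ 1-day column alone. LOC_Os11g02369 in Bin11.1, matched to LTP1, had 305 FPKM in H471 and 112 FPKM in HHZ, with 311 FPKM in P28, and after 3 days 277 FPKM in H471 and 375 FPKM in HHZ. Class III peroxidases, which act in the wall, had 3 higher and no lower genes of 35 (8.57%), and LOC_Os01g19020 had 9.71 FPKM in H471 and 1.93 FPKM in HHZ.

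Metabolic families had genes past the rule in both directions. Among 124 cytochromes P450, 5 were higher and 4 lower (7.26% in all, against 3.88% of all kept genes). LOC_Os11g41680, matched to CYP71B2, had 42.4 FPKM in H471 and 3.45 FPKM in HHZ. In the other direction LOC_Os07g04410 was listed at 0 in H471 and had 9.04 FPKM in HHZ, and LOC_Os03g25500 in Bin3.1 had 38.6 FPKM in H471 and 132 FPKM in HHZ. Among 115 genes described as UDP-glycosyltransferases, 3 were higher and 2 lower (4.35% in all). The largest decrease, LOC_Os06g04200, had 0.205 FPKM in H471 and 4.51 FPKM in HHZ. Like the seed storage genes, it was detected almost only in HHZ after 1 day. LOC_Os10g18480 had 9.24 FPKM in H471 and 25.6 FPKM in HHZ, and was lower in H471 in the other 2 conditions as well.

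Jasmonate and gibberellin genes had 2 calls each. All of these called genes are also in lists that the study drew up on these samples. Their shares below are therefore no independent evidence. Of 15 kept genes of jasmonate synthesis and perception 2 (13.3%) were lower in H471 and none higher, where 1.84% of all kept genes were lower, with a list median of -0.28. MFP2 (LOC_Os05g06300), which shortens the fatty chain in the peroxisome, had 0.0194 FPKM in H471 and 1.92 FPKM in HHZ, with 0.0261 FPKM in P28, and lies in Bin5.3. LOC_Os12g04500, which the study lists as fadA while the table matches it to a response regulator, had 8.81 FPKM in H471 and 18.8 FPKM in HHZ. A lipoxygenase that starts the pathway, LOC_Os12g37260, had 55.5 FPKM in H471 and 32.9 FPKM in HHZ. Of 11 kept gibberellin genes 2 (18.2%) were higher and none lower, where 2.04% of all kept genes were higher. Both are neighbours in Bin7.2 named GID1L2 after the gibberellin receptor, while the best Arabidopsis match of both is carboxyesterase 18. Whether they act in gibberellin perception was not tested. LOC_Os07g44890 had 11.1 FPKM in H471 and 2.57 FPKM in HHZ, and LOC_Os07g44900 had 9.10 FPKM in H471 and 3.25 FPKM in HHZ.

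Most lists that the study drew up on these samples held more genes past the rule than the 3.88% of all kept genes. That is no independent evidence. All kept genes gave 2.04% higher and 1.84% lower. Of the study's 16 kept receptor kinases 7 were higher and 5 lower, of 19 other kinases 3 and 3, of 34 transcription factors 2 and 2, of 9 carbohydrate genes 3 and 0, of 19 redox genes 3 and 1, and of 15 genes of osmotic adjustment 2 and 0. None of its 6 calcium genes passed. LOC_Os03g08470, an AP2 factor the study names, had 1.42 FPKM in H471 and 1.77 FPKM in HHZ after 1 day, and 173 FPKM in H471 and 83.0 FPKM in HHZ after 3 days. LOC_Os01g18584 (OsWRKY9) had 12.3 FPKM in H471 and 10.1 FPKM in HHZ after 1 day, and 45.7 FPKM in H471 and 21.1 FPKM in HHZ after 3 days. In the control it was the lower in H471, with 23.7 FPKM in H471 and 55.4 FPKM in HHZ.

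Seed storage genes accounted for part of the lower calls. Glutelins, prolamins, 2S albumins and seed allergens are proteins of the endosperm and embryo. The lists were drawn up after the values were seen, and 13 of the genes come from a table of the study. These 13 summed to 4.74 FPKM in H471 and 218 FPKM in HHZ after 1 day, and to between 3.90 and 8.35 FPKM in the control and 3-day columns of all genotypes and the P28 1-day column. The prolamin LOC_Os07g10580 was listed at 0 in H471 and had 40.8 FPKM in HHZ, and the glutelin LOC_Os01g55690 had 1.01 FPKM in H471 and 31.6 FPKM in HHZ. A trace was seen in the HHZ control, with 0.909 FPKM of LOC_Os07g10580. The second list takes the 15 genes matched to Arabidopsis 12S globulins, and all 9 kept ones were lower in H471. Together with the oleosins, 18 of 19 kept seed genes were lower in H471 and none was higher. Without them 315 genes were lower, 1.75% of 18046. Their origin was not tested.

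**Figure D5:**
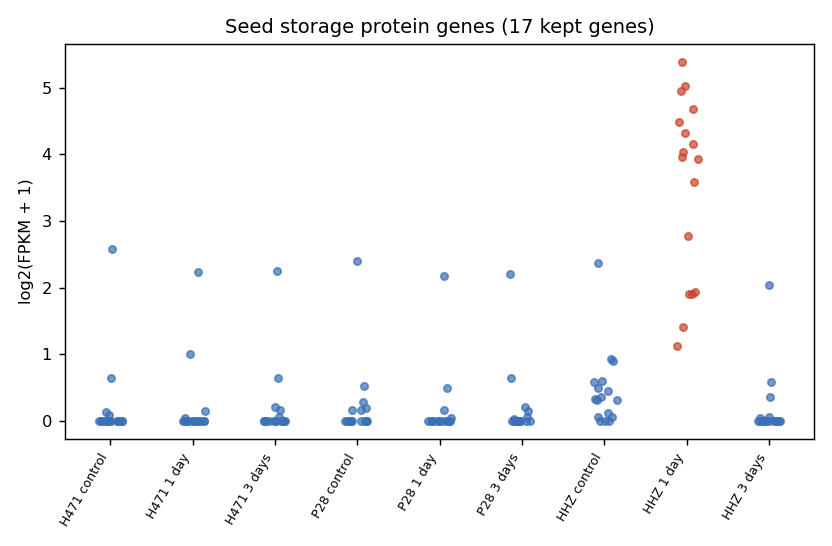
Levels, as log2(FPKM + 1), of the 17 kept seed storage protein genes in the 9 columns, 1 point per gene, with the HHZ 1-day column in red. All 17 are above 1 FPKM in HHZ after 1 day, and most are at or near 0 in the other 8 columns.

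Among the 10 most abundant genes past the rule, some passed it in the opposite direction in another condition. LOC_Os02g27769, matched to ribosomal protein S27, had 7851 FPKM in H471 and 34087 FPKM in HHZ after 1 day, but 24378 FPKM in H471 and 9735 FPKM in HHZ after 3 days. LOC_Os06g08320, matched to ribosomal protein L39, had 1591 FPKM in H471 and 6192 FPKM in HHZ after 1 day, and 3776 FPKM in H471 and 1868 FPKM in HHZ after 3 days. Both were lower in H471 than in HHZ after 1 day alone. In the other direction LOC_Os06g47230, with no description and the highest value of any gene past the rule, had 108525 FPKM in H471 and 42849.8 FPKM in HHZ, while LOC_Os05g28750, matched to ribosomal protein L29e, had 13556 FPKM in H471 and 6116 FPKM in HHZ. Of 281 kept ribosomal protein genes 5 were higher and 7 lower (4.27%, close to the 3.88% of all kept genes), with a median of -0.03 against -0.0049 for all kept genes. Short and near-identical copies make such values uncertain. Organelle-type genes had 6 higher and no lower members of 43 (14.0%, where all kept genes gave 2.04% higher and 1.84% lower), among them LOC_Os04g16770, matched to the photosystem II protein A, with 38.1 FPKM in H471 and 11.9 FPKM in HHZ. Its match is a chloroplast gene, and reads from the chloroplast and from nuclear copies of its genes cannot be told apart.

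A few described genes differed after 1 day and in neither other condition. Of 7897 described genes of at least 10 FPKM whose control and 3-day differences were both under 0.5, 23 passed the rule. A gene that was low in both genotypes in another condition meets this limit too, since little difference can show there. LOC_Os07g43740 in Bin7.2, a RING/U-box protein of the kind that tags proteins with ubiquitin, had 42.2 FPKM in H471 and 16.8 FPKM in HHZ. After 3 days it had only 0.391 FPKM in H471 and 0.102 FPKM in HHZ. LOC_Os12g14440, a mannose-binding lectin, had 10.7 FPKM in H471 and 3.60 FPKM in HHZ. LOC_Os11g42480, an acyltransferase, had 0.0558 FPKM in H471 and 11.0 FPKM in HHZ, and LOC_Os11g41150, matched to the microtubule protein SPIRAL1-like2, had 1.17 FPKM in H471 and 10.0 FPKM in HHZ. P28 was close to HHZ in these last 2, with 10.4 and 14.9 FPKM. The acyltransferase was low in both other conditions. It had 0.856 FPKM in H471 and 0.792 FPKM in HHZ in the control, and 0 and 0.301 FPKM after 3 days. Larger decreases of this kind were those of the seed globulins LOC_Os02g25640 (-4.32 on the log2 scale), LOC_Os01g55690 (-4.02) and LOC_Os03g31360 (-3.89). These globulins were detected almost only in HHZ after 1 day.

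A fit over the 9 columns gave the only test. limma, with terms for genotype and condition on log2(FPKM + 1), asked which genes differed between H471 and HHZ in the same way in all 3 conditions, and its p-values measure the spread between conditions, not between plants. Of 20568 genes, 37 were higher (0.18%) and 9 lower (0.0438%) in H471 at a Benjamini-Hochberg adjusted p under 0.05. Of these 46 genes, 26 lay in donor segments, where 10% of the genes kept after 1 day lie. The rule of size after 1 day, which is part of the same data, was passed by 43 of the 46. LOC_Os07g43560 differed by 3.17 ± 0.23 (SE; limma adjusted p = 0.00651) and LOC_Os07g43570 by 6.72 ± 0.60 (limma adjusted p = 0.012). Both CRK10 genes were higher in H471 in 3 of 3 conditions. LOC_Os11g37759 differed by 4.54 ± 0.35 (limma adjusted p = 0.00651), LOC_Os08g14950 by 2.74 ± 0.33 (limma adjusted p = 0.0396) and LOC_Os11g39320 by 4.01 ± 0.42 (limma adjusted p = 0.0222). Lower in H471 in 3 of 3 conditions was LOC_Os02g53240 in Bin2.4, with 8.83 FPKM in H471 and 156 FPKM in HHZ after 1 day and a difference of -3.82 ± 0.35 (limma adjusted p = 0.0129), which was chosen by its place in that segment. Smaller steady differences were called too: LOC_Os09g33930 in Bin9.2, matched to farnesyltransferase A, had 22.3 FPKM in H471 and 49.3 FPKM in HHZ and differed by -0.89 ± 0.10 (limma adjusted p = 0.0335). The count rests on the columns used. With the 6 columns of H471 and HHZ alone, 5 genes were called, all of them among the 46. Without the 3 control columns, left out after the data were seen, 130 genes were called, and 35 of the 46 were among them. Without the 1-day columns 1 gene was called.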

How the data were processed

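The deposited table holds the authors' FPKM, 1 value per gene for each of 9 columns (3 genotypes in 3 conditions, 18 samples). Per the study's methods, ribosomal RNA was removed before paired-end sequencing, trimmed reads were aligned to the MSU rice genome with TopHat, and FPKM came from Cufflinks, with no version named for either. No strand setting is stated, so a gene and an overlapping antisense gene cannot be told apart. The 2 libraries of a condition are pooled in each column, and the FPKM hold no read counts, so no counting interval is given; library sizes the study lists were not used here. An exact 0 can be a failed estimate; 11 genes in H471 and 5 in HHZ at 1 day were at 0 with a median of at least 20 FPKM in the other columns.

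Genes with at least 1 FPKM in either 1-day column were kept, a pseudocount of 1 was added and the size rule was a log2 difference of at least 1. Segment membership used locus numbers between the first and last gene the study lists. limma 3.58.1 (R 4.3.3) fitted genotype and condition with a trend. The fit was tested on simulated data for H471 against HHZ over 20568 genes: 76 of 100 genes changed by 1 and 90 of 100 changed by 2 on the log2 scale were called, with 8 unchanged genes among 174 calls.

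The members and lists were chosen with earlier results of these data known. Named genes are the 12 largest differences each way among described genes of at least 10 FPKM, the 5 most abundant past the rule each way, the 2 largest and 2 smallest of each list at 5 FPKM or more, the 5 largest each way that were steady elsewhere, the largest each way per segment, and genes the study names for this comparison. Others are said to be chosen later. Descriptions are those of the best Arabidopsis match. The alternatives tried were the pseudocount, a median rescaling, filters, a stricter size rule, a segment left out and other sets of columns. No sequence is shown.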

Additional observations from a re-analysis of the deposited data

Results flagged for a closer look

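The following 5 named genes, past the size rule after 1 day, passed it in the opposite direction in another condition, with a value above 0 in every column compared. With 1 pooled column per group the difference between conditions was not tested. LOC_Os02g27769 had a log2 difference of H471 and HHZ of -2.12 after 1 day and 1.32 after 3 days. LOC_Os04g02670, with no description, had -1.98 after 1 day and 1.79 after 3 days. LOC_Os06g08320 had -1.96 after 1 day, 1.02 after 3 days and 1.10 in the control. LOC_Os04g16770 had 1.60 after 1 day and -1.05 in the control. LOC_Os06g13680, matched to a B12D protein, had 1.43 after 1 day and -1.32 in the control. A further 2 named genes changed sides but were listed at 0 in a column, so no log2 difference is given. LOC_Os04g31820, of unknown function, was listed at 0 in H471 and had 15.0 FPKM in HHZ after 1 day, and 29.0 FPKM in H471 and 7.11 FPKM in HHZ after 3 days. LOC_Os07g04410, a cytochrome P450, was listed at 0 in H471 and had 9.04 FPKM in HHZ after 1 day, and had 2.83 FPKM in H471 and was listed at 0 in HHZ in the control.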

How the results depend on the processing

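A pseudocount of 0.1 gave 1119 genes past the size rule (601 higher and 518 lower in H471), with 12.6% of genes inside the segments and 5.48% outside. Keeping genes of at least 10 FPKM gave 235 (128 higher, 107 lower), with 6.34% inside and 1.74% outside. A log2 difference of at least 2 gave 217 (104 higher, 113 lower), with 3.87% inside and 0.904% outside. With no filter the share inside was 7.15%, as more genes were counted. In each of these the share inside exceeded that outside. Median rescaling, by -0.0079 on the log2 scale, and leaving out the seed genes, chosen after the data were seen, kept every count within 1.5 times. No named gene past the rule changed direction under either the other pseudocount or the rescaling, but neither could have changed one. A pseudocount added to both values leaves the direction as it is, and the rescaling was far smaller than the size rule.

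limma called 5 genes with the 6 columns of H471 and HHZ alone, 1 without the 1-day columns and 130 without the control columns, the last chosen after the data were seen. Fewer columns leave 2 residual degrees of freedom, against 4. At an unadjusted p under 0.05 it called 1386 genes in the reported fit.

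No paired analysis was possible because each column pools its 2 libraries, and leaving out a library could not be run for the same reason. Segment limits by genome coordinate were not run, as no annotation of the files' build was used here.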

Other observations

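Genes seen mainly in a single column were counted for both genotypes. The limits were at least 2 FPKM in a 1-day column and under 10% of that in each of the other 8 columns. They were met by 17 genes for H471 after 1 day and by 31 for HHZ after 1 day. Of these, 0 and 15 were in the seed lists. LOC_Os03g37878, counted for H471, also had 4.33 FPKM in the H471 control and 3.98 FPKM in H471 after 3 days. These limits were chosen after the data were seen.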
